A study of Homo sapiens with 11 samples.

Results

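The homologous recombination and Fanconi genes examined here are 33 genes that sense, process and repair broken or crosslinked DNA. They were taken by symbol from a table of 60605 features, and all 33 were found and passed the filter on low values. Polyadenylated RNA had been sequenced from ARPE-19, a human cell line established from retinal pigment epithelium, 4 days after expression of an open reading frame was started in stable lines. The control lines carried GFP, a fluorescent protein (3 libraries), and the other 4 lines carried 1 of the factors Oct4, Sox2 and Klf4, or the 3 together, called OSK (2 libraries each). These are transcription factors used to reprogram cells. The library names of the factor lines also hold the letters mC, which those of GFP lack. Whatever mC stands for cannot be told apart from the factors in a comparison with GFP. The promoter behind the frames, their species and whether a line was 1 clone are not given in the sources used here. Nothing in the labels says that libraries of a group came from separate cultures, so p-values measure the spread between these libraries, which may be technical.

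Homologous recombination repairs a double-strand break by copying the sister chromatid, and so works mainly in S and G2 phase. ATM and ATR signal the damage to the kinases CHEK2 and CHEK1. MRE11, RAD50, NBN, RBBP8 (CtIP), EXO1 and BLM expose single-stranded DNA at the break, and BRCA1, BARD1, PALB2 and BRCA2 prepare it for pairing with the sister chromatid. The Fanconi core complex attaches ubiquitin to FANCD2 and FANCI at stalled or crosslinked forks. Many of these genes are transcribed most in dividing cells, which is why each was also set against genes of mitosis and DNA replication. In bulk RNA, a larger share of cells in S and G2 phase and more RNA per cell cannot be told apart.

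Promoter sequences are shown for CHEK1, BRIP1 and RAD51AP1, which were among the members with the largest rises, and for FANCA, which passed the test in no line. FANCA shares 23.64% of its exonic bases with ZNF276, a gene of the opposite strand with 296 to 420 normalised counts, so its own values are uncertain. Each stretch is the coding strand upstream of the start farthest upstream in RefSeq (GRCh38.p14), with CCAAT boxes (CCAAT or its reverse complement ATTGG), GC boxes (GGGCGG) and E2F-type sites in capitals.
CHEK1, chr11:125626094-125626223, plus strand: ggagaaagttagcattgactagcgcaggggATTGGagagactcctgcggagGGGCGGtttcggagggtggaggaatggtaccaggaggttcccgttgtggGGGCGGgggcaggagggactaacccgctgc
BRIP1, chr17:61863529-61863658, minus strand: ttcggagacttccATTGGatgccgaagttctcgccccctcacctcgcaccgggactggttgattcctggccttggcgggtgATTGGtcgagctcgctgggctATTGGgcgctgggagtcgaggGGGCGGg
RAD51AP1, chr12:4538754-4538889, plus strand: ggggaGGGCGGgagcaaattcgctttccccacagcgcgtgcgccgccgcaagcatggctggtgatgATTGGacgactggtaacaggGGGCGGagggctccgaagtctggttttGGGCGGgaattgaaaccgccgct
FANCA, chr16:89816668-89816837, minus strand: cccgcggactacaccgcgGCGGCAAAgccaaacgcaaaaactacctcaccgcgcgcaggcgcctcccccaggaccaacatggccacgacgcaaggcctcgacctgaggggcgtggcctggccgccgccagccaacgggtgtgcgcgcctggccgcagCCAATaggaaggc
The FANCA stretch also holds an unmarked KLF-type GGGCGTGG. BRIP1 has 3 CCAAT boxes in its stretch, CHEK1 and RAD51AP1 have 1 each, and FANCA has 1 CCAAT box and 1 E2F-type site. The FANCA stretch runs from base -190 to -21 before the start, the others up to -1. A GC box of FANCA at -218 and another of CHEK1 at -203 lie outside the stretches shown.

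RefSeq gave 42 promoter windows (250 bases before to 50 after a start) for 30 members, and 35116 windows over all genes. Motifs were searched on both strands and counted per window, so genes with several starts count more than once. As a description, without a test, a CCAAT box lay in 42.9% of the members' windows and in 34.6% of all windows. A GC box lay in 66.7% against 45.0%, and an E2F-type site (TTTCCCGC, TTTGGCGC, TTTCGCGC or TTTGCCGC) in 11.9% against 3.31%. The CHR element of cell cycle genes (TTTGAA or TTCGAA) was found in 7.14% against 16.4%. Motifs of the delivered factors were added after the other 4 had been counted. A KLF-type site (GGGTGTGG or GGGCGTGG) lay in 9.52% of the members' windows against 8.05%. None of the 42 windows held the SOX-type letters CATTGTT or CATTGTC (5.86% of all windows) or the octamer-type letters ATTTGCAT or ATTTGCAA (2.62%). Of the 11 members that were higher in Sox2, Klf4 and OSK, a set formed from their values, all but FANCI had a window, and over their 15 windows the shares were 53.3% with a CCAAT box, 80.0% with a GC box, 20% with an E2F-type site, 6.67% with a CHR element and 0 with a KLF-type site. The other 27 windows gave 37.0%, 59.3%, 7.41%, 7.41% and 14.8%. These matches are letters in a short window and say nothing of binding.

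The libraries held 15053300 to 19791775 reads, recovered from normalised counts. The delivered genes were high where labelled: POU5F1, which encodes Oct4, was at 66823 to 67326 normalised counts in the Oct4 line and 19020 to 19542 in OSK, against 251.9 to 276.1 in GFP. SOX2 was at 29106 to 29141 in the Sox2 line and 17582 to 17764 in OSK, and KLF4 at 22142 to 24205 in the Klf4 line and 24202 to 24470 in OSK, each at most 124.1 in GFP. GFP replicate 1 and OSK replicate 1 stood apart, with 42956 and 32493 features detected against 25853 to 26971 in the other libraries, and results that rest on them are given without them. Of 14 markers of retinal pigment epithelium, 11 reached 10 normalised counts in at least 2 libraries, while RPE65, DCT and TTR were at or near 0. Their sum was 33500 to 37200 in GFP and as low as 15900 in other lines. Of the 11, 9 fell in Oct4, 6 in Sox2, 5 in Klf4 and 9 in OSK, with 1 higher in each, and their part in the results below was not tested. Immune markers were detected for 0 of 5 genes and neural retina markers for 1 of 5. Endothelial markers were detected for 2 of 3 (summed 1.94 to 124), with the highest sum in GFP replicate 1. Each endothelial gene was at most 2.02 in the other GFP libraries, and VWF ran from 4.64 to 46.3 in the factor lines. Fibroblast markers were detected for 2 of 4 (summed 4570 to 11600), and nearly all of the sum was PDGFRB (4529 to 11534). THY1 was at 16.3 to 71.5, DCN at most 5.96 and LUM at most 12.3.

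**Figure D1:**
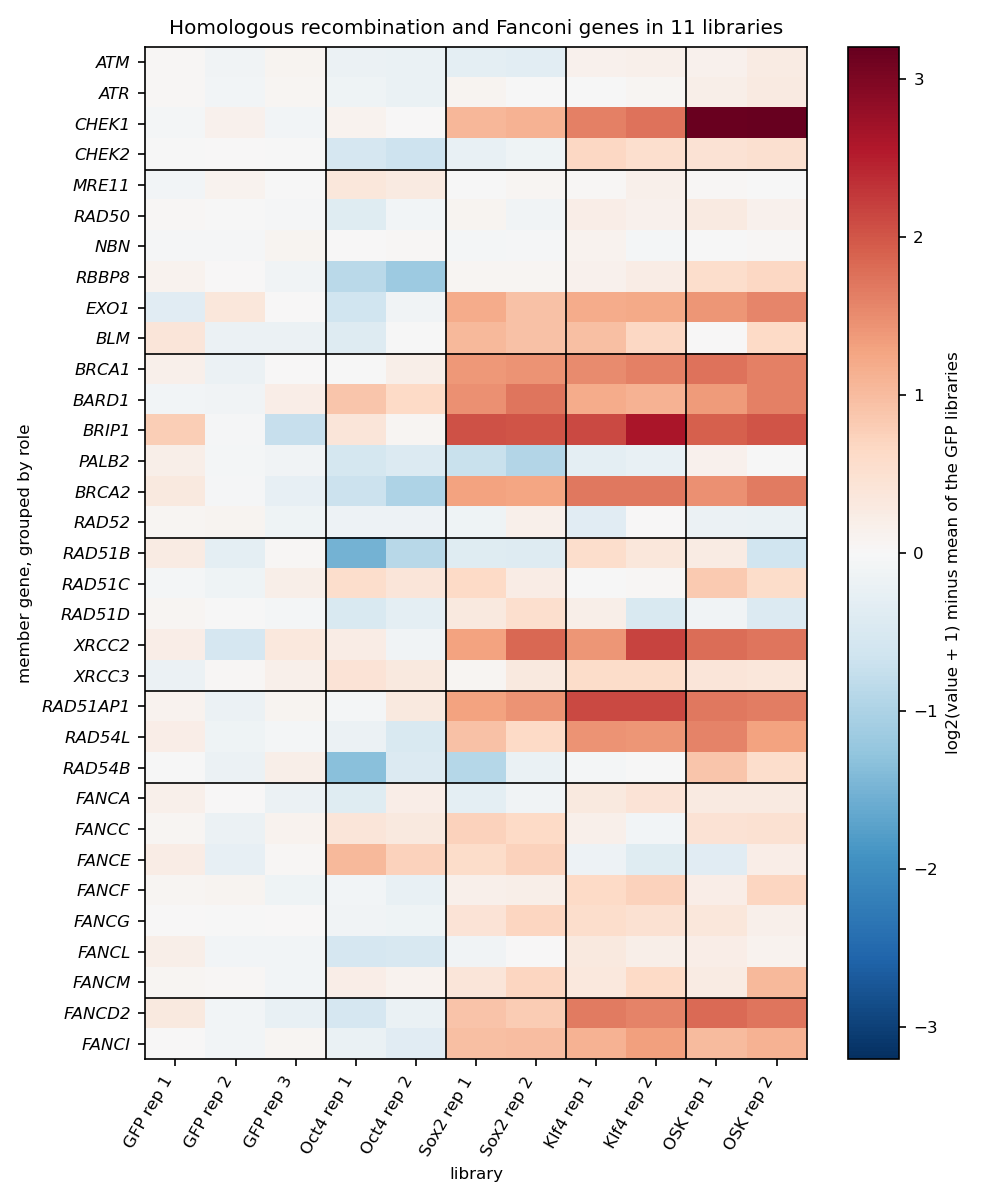
Log2(value + 1) of the 33 members (rows, ordered by role) in the 11 libraries (columns), minus the mean of the 3 GFP libraries, with red higher and blue lower. CHEK1 in both OSK libraries is the darkest, and a block of red runs through Sox2, Klf4 and OSK for 11 members.

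Against GFP, most called changes in Sox2, Klf4 and OSK were rises, while in Oct4 the number called was near the share of all genes. In OSK 20 of the 33 members were higher and 0 lower by limma (adjusted p under 0.05 over 18828 genes), against 19.7% higher, 20% lower and 39.7% either way of all genes tested. In Klf4 15 were higher and 0 lower (17.6% and 16% of all genes, 33.5% either way). In Sox2 16 were higher and 2 lower, PALB2 and ATM (21.7% and 19.9%, 41.6% either way). In Oct4 5 were higher and 8 lower (20.1% and 17.2%, 37.3% either way). The median change of the members was -0.17 in Oct4, 0.44 in Sox2, 0.50 in Klf4 and 0.47 in OSK on the log2 scale, with all genes at -0.02, -0.02, -0.02 and -0.01. All 4 comparisons share the GFP libraries. edgeR on recovered reads called 11, 20, 15 and 20 members in Oct4, Sox2, Klf4 and OSK, where it called 36%, 41.6%, 32.1% and 38.4% of all genes tested. DESeq2 called 7, 16, 13 and 15 members, and 31.6%, 36.5%, 30.9% and 36.8% of all genes with an adjusted p. The Oct4 count was 8 without GFP replicate 1 and OSK replicate 1, and 7 without Oct4 replicate 1, and the OSK count was 13 without OSK replicate 2.

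The same 11 members were higher in Sox2, Klf4 and OSK: CHEK1, EXO1, BRCA1, BARD1, BRIP1, BRCA2, XRCC2, RAD51AP1, RAD54L, FANCD2 and FANCI. This was 33.3% of the members and 6.15% of all genes tested. BARD1 was also higher in Oct4, and BRCA2 and FANCI were lower there. Another 6 members (18.2%, against 31.7% of all genes tested) passed the test in no line: RAD50, NBN, RAD52, RAD51D, RAD54B and FANCA. NBN was the flattest of them, with group means from 542 ± 6.87 (SD, n = 2) in Sox2 to 572 ± 51.3 (n = 2) in Klf4.

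Per kilobase of exon, the scale on which genes can be compared, BRCA2 had the lowest level in GFP, 2.51 ± 0.518 normalised counts (SD, n = 3), followed by BRIP1 at 3.03 ± 1.66. The highest were FANCL at 112 ± 13.3, NBN at 90.8 ± 4.27 and MRE11 at 86.9 ± 6.09. In OSK CHEK1 stood first at 150 ± 2.13 (n = 2), from 16.6 ± 1.53 in GFP, above FANCL at 125 ± 6.08 and RBBP8 at 123 ± 5.35. FANCL shares 18.74% of its exonic bases with VRK2 and the use of strand in counting is not given, so its level may hold reads of that gene.

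All 4 signalling kinases were called higher in OSK, 2 in Klf4 and 1 in Sox2. CHEK1 (chr11:125625136-125676255, plus strand, in GENCODE 29 on GRCh38), the kinase that ATR activates at stalled forks, changed most of all members. It measured 104, 120 and 102 normalised counts in GFP, 118 and 110 in Oct4, 228 and 237 in Sox2, 332 and 363 in Klf4, and 976 and 995 in OSK. The Sox2, Klf4 and OSK libraries did not overlap with GFP or with each other, while Oct4 lay within the GFP range. The OSK level was 9-fold that of GFP on the log2(value + 1) scale (log2 change 3.17, SE 0.11, limma adjusted p = 1.16e-11). CHEK1 was also higher in OSK than in Klf4 (1.5, SE 0.13, adjusted p = 3.17e-07), and this call held under all 22 alternatives (1.44 to 1.57). Only 1.22% of its exonic bases are shared with STT3A, on the same strand.

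**Figure D2:**
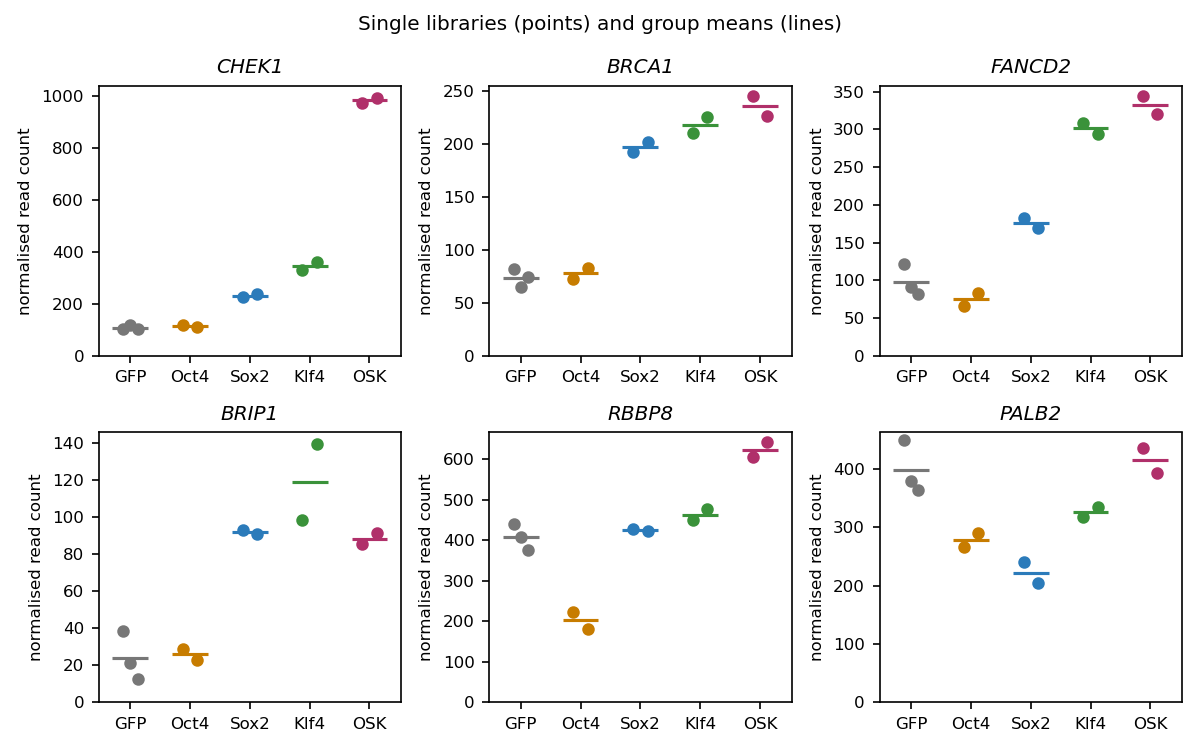
Normalised read counts of 6 members in each library (points) with group means (lines), by line on the x axis, from an axis that starts at 0. CHEK1 rises from about 100 in GFP to 976 and 995 in OSK, while RBBP8 is lowest in Oct4 and PALB2 lowest in Sox2.

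ATM, the kinase that answers double-strand breaks, moved little. It stood at 1485, 1326 and 1532 in GFP, 1270 and 1246 in Oct4, 1158 and 1145 in Sox2, 1595 and 1624 in Klf4, and 1584 and 1722 in OSK. Its fall in Sox2 by 0.33 on the log2 scale (SE 0.07, limma adjusted p = 0.00189) held under all 22 alternatives. Its lower level in Oct4 (-0.20, adjusted p = 0.0443) was lost under 17 of them, and its higher level in OSK (0.19, adjusted p = 0.0485) under 13. ATR, at 765, 712 and 779 in GFP, was 854 and 914 in OSK (0.23, adjusted p = 0.0270), a call lost under 4 alternatives. In the other lines ATR ran from 644 to 803 and passed no test. CHEK2, the kinase downstream of ATM, was 80.4, 83.0 and 81.7 in GFP and 55.7 and 51.5 in Oct4, a change of -0.60 (SE 0.17, adjusted p = 0.0101) that was lost with DESeq2 and without Oct4 replicate 2. It was 69.6 and 74.5 in Sox2, 130 and 120 in Klf4 and 114 and 118 in OSK. The Klf4 level was higher by 0.60 (adjusted p = 0.0107), a call lost with DESeq2 and without Klf4 replicate 1, and the OSK call (0.50) was lost under 8 alternatives. CHEK2 shares 6.7% of its exonic bases with HSCB and has related pseudogenes.

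Of the 6 genes of end recognition and resection, 2 were called higher in OSK and in Sox2, and 1 in Klf4 and in Oct4. RBBP8 (chr18:22798261-23026488, plus strand), the cofactor that lets MRE11 start cutting, fell in Oct4 and rose in OSK. Its libraries were at 440, 408 and 375 in GFP, 223 and 182 in Oct4, 427 and 424 in Sox2, 451 and 476 in Klf4, and 605 and 643 in OSK. The Oct4 libraries lay below all others and the OSK libraries above all others. The Oct4 level was 0.496 of that in GFP on the log2(value + 1) scale (change -1.01, SE 0.10, limma adjusted p = 1.34e-06). The OSK level was 1.53-fold (0.62, SE 0.10, adjusted p = 0.000187), and both calls held under all 22 alternatives. EXO1, an exonuclease that lengthens the resected tract, had group means of 31.8 ± 8.34 (SD, n = 3) in GFP and 89.6 ± 7.10 (n = 2) in OSK. BLM, a helicase that works with EXO1, was higher in Sox2 (0.99, adjusted p = 0.0158), and that call was lost without either Sox2 library and with a replicate block. The MRE11 complex was flat apart from a higher MRE11 in Oct4 (0.32, adjusted p = 0.00555), lost without Oct4 replicate 1. RAD50 and NBN passed no test against GFP.

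Of the 6 genes of the BRCA complexes, the same 4 (BRCA1, BARD1, BRIP1 and BRCA2) were higher in Sox2, Klf4 and OSK. BRCA1 (chr17:43044295-43170245, minus strand), a ubiquitin ligase that promotes resection, and BARD1, its partner, rose in Sox2, Klf4 and OSK. BRCA1 was at 82.4, 64.8 and 74.9 in GFP, 73.2 and 83.6 in Oct4, 193 and 202 in Sox2, 211 and 226 in Klf4, and 246 and 227 in OSK. All libraries of the last 3 lines lay above those of GFP and Oct4. The OSK change was 1.67 (SE 0.15, limma adjusted p = 2.28e-07). BARD1 measured 54.6, 53.6 and 68.1 in GFP, 108 and 91.6 in Oct4, 162 and 193 in Sox2, 135 and 127 in Klf4, and 153 and 180 in OSK. It was the only member higher in all 4 lines, 3.03% of the members against 3.36% of all genes tested. Its change was largest in Sox2 (1.58, SE 0.17, limma adjusted p = 1.82e-06) and smallest in Oct4 (0.76, SE 0.17, adjusted p = 0.00252).

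BRIP1 (chr17:61681266-61863521, minus strand), a helicase bound by BRCA1, had the largest rise in Klf4 of all members. The counts were 38.7, 21.2 and 12.6 in GFP, 29.03 and 22.9 in Oct4, 93.1 and 90.8 in Sox2, 98.3 and 139 in Klf4, and 85.6 and 91.3 in OSK. GFP replicate 1 was the highest of its group. The Klf4 change was 2.36 (SE 0.35, limma adjusted p = 6.30e-05) and ranged from 1.99 to 2.76 over the alternatives. BRCA2, a mediator of strand exchange, was at 37.7, 29.3 and 25.3 in GFP, 18.6 and 14.9 in Oct4, 75.2 and 74.5 in Sox2, 101 and 101 in Klf4, and 85.6 and 99.0 in OSK. It rose by 1.27, 1.70 and 1.57 in Sox2, Klf4 and OSK (SE 0.24 each). Its fall in Oct4 (-0.83, adjusted p = 0.0135) was lost in 4 of 22 alternatives, DESeq2 among them.

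PALB2 (chr16:23603160-23641310, minus strand), which joins BRCA1 to BRCA2, was lower in Oct4 and Sox2. Its values were 450, 378 and 364 in GFP, 266 and 291 in Oct4, 240 and 205 in Sox2, 318 and 335 in Klf4, and 436 and 393 in OSK. Both Oct4 and Sox2 libraries lay below all GFP libraries. So did those of Klf4, where PALB2 was not called. The changes were -0.51 in Oct4 (SE 0.12, limma adjusted p = 0.00265) and -0.83 in Sox2 (SE 0.12, adjusted p = 2.47e-05), and neither call was lost under any alternative. In OSK PALB2 did not pass the test (0.06, adjusted p = 0.711) and was above Sox2 by 0.90 (adjusted p = 3.13e-05). RAD52, a protein of strand annealing, passed no test.

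Of the 5 genes RAD51B, RAD51C, RAD51D, XRCC2 and XRCC3, whose products form complexes that act in recombination, 3 were called higher in OSK, 2 in each other line, and RAD51B was lower in Oct4. XRCC2 was at 32.8, 19.2 and 36.0 in GFP, 33.7 and 26.3 in Oct4, 70.7 and 104 in Sox2, 77.5 and 131 in Klf4, and 99.7 and 94.6 in OSK. Its Klf4 change was 1.80 (SE 0.31, limma adjusted p = 0.000255). RAD51B was at 49.7, 33.4 and 42.8 in GFP, 13.9 and 21.8 in Oct4, 31.4 and 30.8 in Sox2, 61.3 and 53.7 in Klf4, and 49.9 and 26.4 in OSK. The Oct4 fall of RAD51B (-1.20, SE 0.33, adjusted p = 0.00872) was lost without Oct4 replicate 1. RAD51C was higher in Oct4, Sox2 and OSK by 0.47, 0.44 and 0.72, and each call was lost without GFP replicate 1 and OSK replicate 1. XRCC3 was called higher in Oct4, Klf4 and OSK, but 76.68% of its exonic bases are shared with KLC1, a gene with 1538 to 2314 normalised counts, so its values are uncertain. RAD51D passed no test against GFP and was lower in Klf4 and in OSK than in Sox2.

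RAD51AP1, which promotes invasion of the donor strand, was at 23.8, 19.2 and 23.3 in GFP, 20.9 and 27.5 in Oct4, 55.0 and 61.7 in Sox2, 98.3 and 98.3 in Klf4, and 72.6 and 70.4 in OSK. The Klf4 rise was 2.11 (SE 0.25, limma adjusted p = 6.14e-06). RAD54L, a motor protein of strand exchange, rose from 44.0 ± 5.90 (SD, n = 3) in GFP to 120 ± 1.03 (n = 2) in Klf4 and 121 ± 17.3 (n = 2) in OSK. It shares 25.09% of its exonic bases with LRRC41. RAD54B passed no test against GFP, and 59.08% of its exonic bases are shared with FSBP.

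Of the 7 Fanconi core genes, 3 were called higher in Sox2 and in OSK, 2 in Klf4 and 1 in Oct4, none by more than 0.89 on the log2 scale. FANCE, which holds FANCD2 against the core, was at 88.4, 62.7 and 76.8 in GFP, 157 and 126 in Oct4, 113 and 126 in Sox2, 67.1 and 57.1 in Klf4, and 58.5 and 88.0 in OSK. Its Oct4 rise was 0.89 (SE 0.22, limma adjusted p = 0.00391), lost without Oct4 replicate 1, and its Sox2 rise (0.66, adjusted p = 0.0221) was lost under 5 of 22 alternatives. It was lower in Klf4 than in Oct4 (log2 change -1.17, adjusted p = 0.000801). FANCL, the ubiquitin ligase of the complex, was at 307, 252 and 251 in GFP and 185 and 187 in Oct4, a change of -0.53 (SE 0.12, adjusted p = 0.00186). In Sox2 FANCL stood at 249 and 271, in Klf4 at 335 and 307 and in OSK at 311 and 290, with no call. FANCC was higher in Sox2 and OSK, FANCF in Klf4 and OSK, FANCG in Sox2 and Klf4, and FANCM in OSK alone. The OSK calls of FANCC, FANCF and FANCM (0.47, 0.44 and 0.65) were each lost without OSK replicate 2. FANCF shares 11.28% of its exonic bases with GAS2.

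FANCD2 (chr3:10026414-10101930, plus strand) and FANCI, the pair that the core complex modifies, rose in Sox2, Klf4 and OSK. FANCD2 was at 121, 91.1 and 81.7 in GFP, 66.2 and 83.6 in Oct4, 183 and 170 in Sox2, 309 and 294 in Klf4, and 344 and 320 in OSK. Its change was 0.86, 1.63 and 1.77 in the last 3 lines (SE 0.17 each), with limma adjusted p = 4.08e-07 in OSK. FANCI was at 241, 226 and 250 in GFP, 206 and 185 in Oct4, 466 and 474 in Sox2, 514 and 591 in Klf4, and 487 and 518 in OSK. It changed by 0.97, 1.20 and 1.07 (SE 0.10 each). The lower FANCI in Oct4 (-0.29, adjusted p = 0.0337) was lost under 9 of 22 alternatives. FANCD2 has related pseudogenes, and FANCI shares 5.9% of its exonic bases with POLG.

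The same counts were made between the lines. OSK was above Oct4 in 21 members and below in 2, MRE11 and FANCE (18.4% and 21.9% of all genes by limma, 40.3% either way). Klf4 was above Oct4 in 20 and below in 2 (20% and 21.8%, 41.7% either way), and Sox2 above Oct4 in 16 and below in 1 (15.4% and 18%, 33.4% either way). Klf4 was above Sox2 in 10 and below in 3, RAD51D, FANCC and FANCE (20.7% and 20.1%, 40.8% either way); the members' total of 13 is near the share of all genes. OSK was above Sox2 in 9 and below in 2 (20% and 20.5%, 40.5% either way), and the members' total of 11 is under the share of all genes. Between OSK and Klf4, 3 members were higher in OSK and 0 lower (9.56% and 11.9%, 21.5% either way): CHEK1, RBBP8 (0.43, limma adjusted p = 0.0133) and RAD51C (0.70, adjusted p = 0.00625). In number these 3 are near the share of all genes called higher and under the share called either way. The RAD51C call was lost without OSK replicate 1 and the RBBP8 call without OSK replicate 2 or Klf4 replicate 1.

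To judge the members against general proliferation, an index was taken as the mean log2(value + 1) of 30 mitosis and 34 DNA replication genes, none of them a member. It was 6.57 ± 0.13 (SD, n = 3) in GFP, 6.74 ± 0.02 (n = 2) in Oct4, 7.65 ± 0.03 in Sox2, 8.32 ± 0.09 in Klf4 and 8.28 ± 0.02 in OSK. The index thus lay 0.17, 1.08, 1.75 and 1.72 above GFP. The mitosis genes moved more (0.40, 1.43, 2.62 and 2.52) than the replication genes (-0.03, 0.78, 0.99 and 1.01). For each gene the change was then tested minus that of the index.

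CHEK1 in OSK was the only member above the index in Klf4 or OSK, by 1.45 (SE 0.16, limma adjusted p = 9.87e-10). It stayed above with either list alone, by 0.65 (adjusted p = 0.00139) over mitosis and by 2.16 (adjusted p = 6.60e-11) over replication. In Klf4 CHEK1 lay at -0.09 from the index (SE 0.16, adjusted p = 0.596), but this turned on the list: it lay below the mitosis genes (-0.95, adjusted p = 3.81e-06) and above the replication genes (0.68, adjusted p = 0.000188). In Sox2 it lay at 0.01 (SE 0.16, adjusted p = 0.955), with no call over either list alone. Relative to the index, OSK had 1 member above and 23 below, with 1.54% and 88.1% of all genes (89.7% either way). Klf4 had 0 above and 24 below (1.48% and 89.8%, 91.3% either way), Sox2 had 2 above and 20 below (2.6% and 77%, 79.6% either way) and Oct4 had 2 above and 13 below (11.7% and 22.5%, 34.2% either way).

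In OSK the members not told apart from the index were EXO1, BRCA1, BARD1, BRIP1, BRCA2, XRCC2, RAD51AP1, RAD54L and FANCD2. Their differences from it ran from -0.27 (RAD54L, SE 0.23) to 0.25 (BRIP1, SE 0.30), and a missed threshold does not show equality. BRIP1 and BARD1 lay above the index in Sox2 by 0.94 (adjusted p = 0.00618) and 0.50 (adjusted p = 0.0332), and BARD1 and FANCE in Oct4 by 0.58 and 0.72. None of those 4 calls held over the mitosis list alone. The counts turned on which list was used. Over the mitosis genes OSK had 31 members below and 1 above, with 95.1% and 0.648% of all genes, and Klf4 had 31 below and 0 above (96.2% and 0.558%), shares below that are near those of all genes. Over the replication genes OSK had 19 below and 8 above (74% and 3.21% of all genes), and Klf4 had 17 below and 7 above (74.6% and 3.26%). The 7 in Klf4 were CHEK1, BRCA1, BRIP1, BRCA2, XRCC2, RAD51AP1 and FANCD2.

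**Figure D3:**
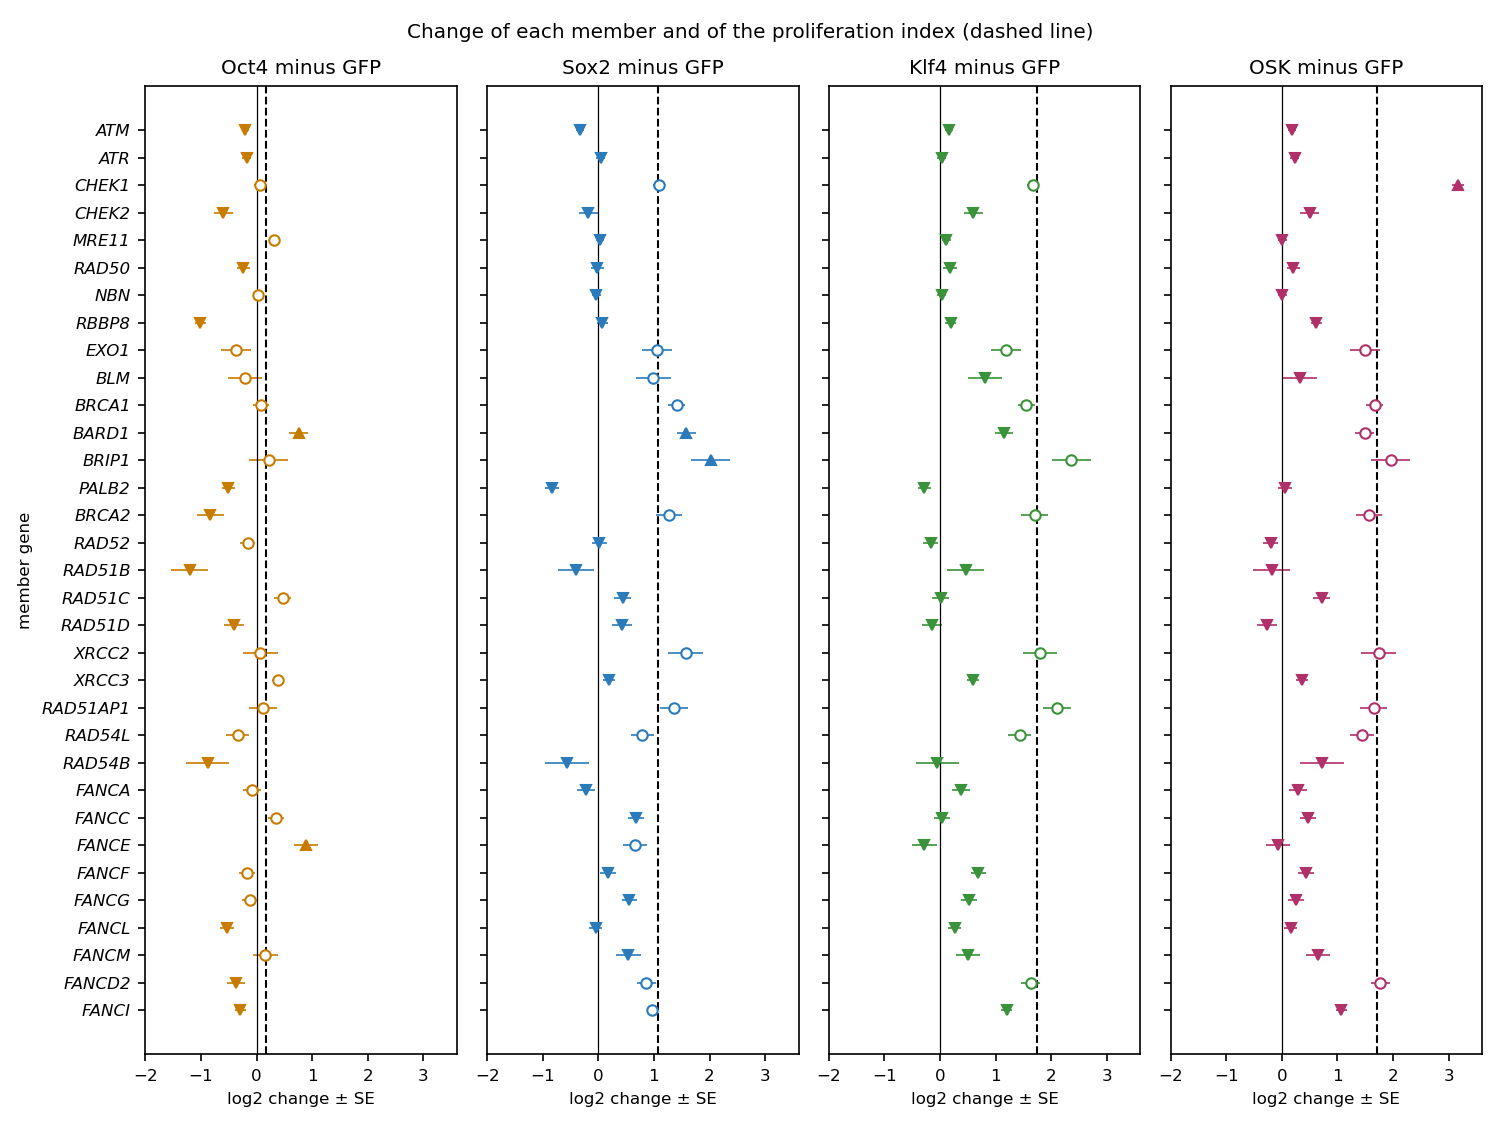
Log2 change of each member against GFP (points, with SE bars) in the 4 lines, with the change of the proliferation index as a dashed line. Upward triangles are above the index, downward triangles below it and open circles not called, and CHEK1 is the single upward triangle in OSK.

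OSK was also set against the sum of the 3 single-factor changes on the log2 scale. The delivered genes were not all at equal levels. POU5F1 was at 66823 to 67326 normalised counts in the Oct4 line and 19020 to 19542 in OSK. SOX2 was at 29106 to 29141 in the Sox2 line and 17582 to 17764 in OSK, while KLF4 was not lower in OSK. A departure from the sum therefore cannot be told apart from a difference in dose. Nor can it be told apart from an effect common to all factor lines and absent from GFP, such as any of mC. The sum would hold such an effect 3 times, and the OSK change would not. By limma 4 members were above the sum and 9 below (15.6% and 20.3% of all genes, 35.9% either way). The members' total of 13 is near the share of all genes. Above it were RBBP8 (1.37, SE 0.21, adjusted p = 8.95e-05), PALB2 (1.68, SE 0.23, adjusted p = 3.44e-05), ATM (0.56, adjusted p = 0.00695) and RAD54B (2.21, adjusted p = 0.0391, lost under 15 of 21 alternatives). The single factors summed to -1.62 for PALB2 and -0.75 for RBBP8, and OSK stood at 0.06 and 0.62. Below it were MRE11, BRCA1, BARD1, BRIP1, XRCC2, XRCC3, RAD51AP1, FANCE and FANCI. BRIP1 had a sum of 4.60 and an OSK change of 1.96. The index itself had a sum of 3.01 and an OSK change of 1.72. CHEK1 was not called (sum 2.83, OSK 3.17, adjusted p = 0.272). The calls of MRE11, XRCC2 and XRCC3 were lost without GFP replicate 1 and OSK replicate 1.

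**Figure D4:**
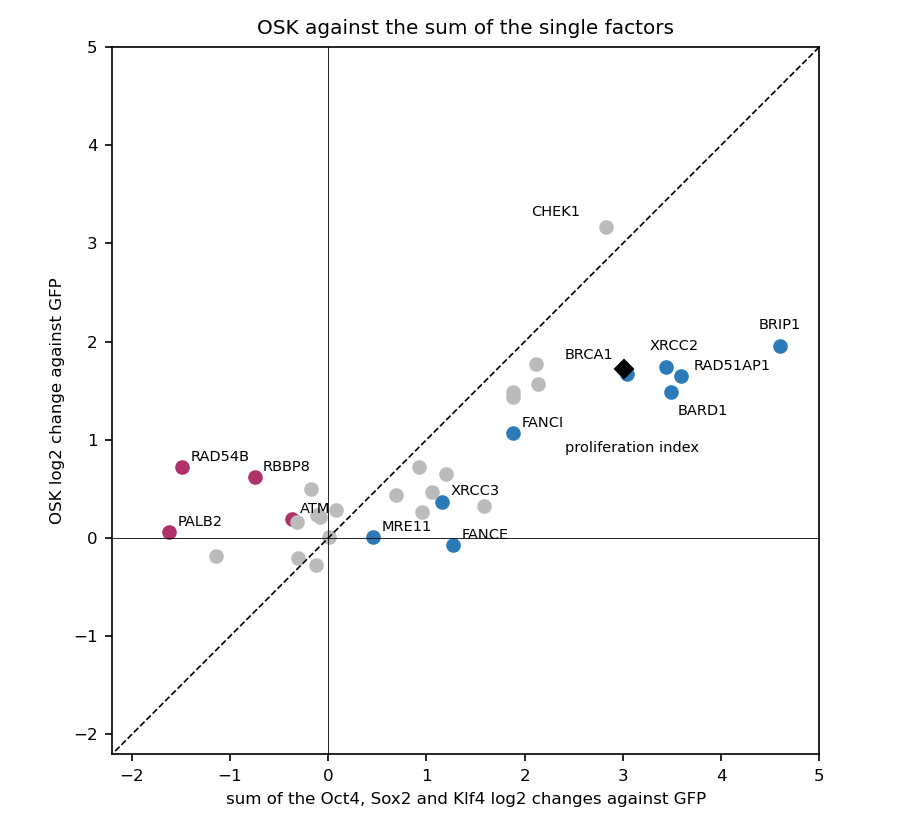
OSK log2 change against GFP (y axis) plotted against the sum of the Oct4, Sox2 and Klf4 changes (x axis) for the 33 members, with the line of equality dashed. Pink points are above the sum, blue points below and grey points not called, and the black diamond is the proliferation index at 3.01 and 1.72.

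The other genes of these pathways, 47 tested, were described by count. Klf4 had 20 higher and 1 lower, OSK 16 and 2, Sox2 15 and 3 and Oct4 6 and 9. Of all genes, 17.6% were higher and 16% lower in Klf4, and 19.7% and 20% in OSK. The shares were 21.7% and 19.9% in Sox2, and 20.1% and 17.2% in Oct4. Either way they were 33.5%, 39.7%, 41.6% and 37.3%, and the list's totals in OSK and Sox2 are near them. Relative to the index, 41 of the 47 lay below in Klf4 and in OSK, with 89.8% and 88.1% of all genes. EME1, a subunit of a nuclease that cuts joined DNA, rose by 2.37 in Klf4 and 2.48 in OSK (SE 0.33 each, limma adjusted p = 3.64e-05 and 1.62e-05). GEN1, another nuclease that resolves crossed strands, rose by 2.22 in OSK (SE 0.09, adjusted p = 5.31e-11). Its Klf4 libraries (645 and 579 normalised counts) and Sox2 libraries (365 and 346) also lay above those of GFP (275, 254 and 268). RNF8, a ubiquitin ligase at breaks, rose by 1.85 in Oct4 (SE 0.09, adjusted p = 2.09e-10). Its OSK libraries, at 855 and 951 normalised counts, also lay above those of GFP, at 388, 364 and 387. Beside them, UBE2T, the ubiquitin-conjugating enzyme that works with FANCL, rose by 1.13 in Sox2 (SE 0.19, adjusted p = 0.000131). UBE2T was at 44.7, 54.6 and 61.2 normalised counts in GFP and 107 and 128 in Sox2. It was also above GFP in Klf4 (134 and 159) and in OSK (132 and 125).

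Lists outside these pathways were counted the same way. Their counts stand beside 20.1% higher and 17.2% lower of all genes in Oct4, and 21.7% and 19.9% in Sox2. In Klf4 the shares were 17.6% and 16%, and in OSK 19.7% and 20%. Of 24 end-joining genes, 4 were higher and 4 lower in Oct4, 7 and 2 in Sox2, 3 and 7 in Klf4, and 4 and 5 in OSK, with medians of 0.02, 0, -0.03 and 0.10. POLQ, the polymerase of an error-prone end-joining route, rose by 1.97 in Sox2, 3.06 in Klf4 and 2.88 in OSK. Of 31 excision and mismatch repair genes, 5 were higher and 9 lower in Oct4, 9 and 4 in Sox2, 8 and 5 in Klf4, and 11 and 7 in OSK. Of 19 regulators of cell cycle transcription, 6 were higher and 3 lower in Oct4, 12 and 2 in Sox2, 7 and 2 in Klf4, and 9 and 2 in OSK. E2F1, an activator of S-phase genes, rose by 2.36 in Sox2, 3.64 in Klf4 and 3.51 in OSK. The mitosis list had 11, 26, 29 and 29 of 30 genes higher and 0 lower in Oct4, Sox2, Klf4 and OSK, and the replication list 3, 20, 26 and 26 of 34 higher and 9, 1, 0 and 0 lower.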

How the data were processed

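Values were those the authors deposited: a signal in normalised counts, which from the values are gene counts divided by 1 factor per library and rounded to 2 decimals. Whole reads were recovered by dividing by the value of 1 read (at least 99.97% of values whole, tolerance 0.0061). The submitters' processing notes name STAR 2.7.1a, featureCounts 1.6.2 and the builds GRCh38, hg38, GRCm38 and mm10, with no role. The use of strand is not given in the sources used here. Per the labels' protocols, RNA was extracted with TRIzol, enriched with oligo(dT) and prepared with NEBNext Ultra II.

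The main test was limma 3.58.1 with a mean-variance trend, in R 4.3.3. It was run on log2(value + 1), a scale on which changes of low genes come out too small. Genes of at least 10 in 2 libraries were tested (18828), with all 11 libraries in 1 fit (6 residual and 9.21 prior degrees of freedom) and Benjamini-Hochberg adjustment at 0.05. edgeR 4.0.16 and DESeq2 1.42.0 were run on recovered reads as alternatives, with others on scaling, filter, pseudocount, replicate block and each library left out. Gene properties came from GENCODE 29. Members and lists were chosen with earlier results of these data known. Values in every library are given for the 6 largest called, non-overlapping changes per comparison with GFP, for BRCA1, BRCA2, FANCD2, FANCI, ATM and ATR, and for members that fell. Of other lists at most 3 genes per comparison are named, and a gene counted among them is not reported here. RAD51C, EXO1 and others outside the rule are given by group.

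On simulated counts for OSK against GFP, with 200 changed genes, the procedure recovered 43.5% of 1.5-fold, 80.5% of 2-fold and 99.5% of 4-fold changes, with 5.43%, 5.85% and 2.93% of calls false, among 19342, 19364 and 19341 genes. In the data far more genes were called in that comparison (39.7%), and the wider detection in GFP replicate 1 and OSK replicate 1 was not simulated. The rates may therefore differ for these data.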

Additional observations from a re-analysis of the deposited data

How the results depend on the processing

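No call of a member against GFP changed direction under any alternative, nor did those between lines or against the sum of single factors. Of 13, 18, 15 and 20 members called in Oct4, Sox2, Klf4 and OSK, 4, 12, 13 and 12 were called under every alternative. With DESeq2 the Oct4 count was 7 and the count between OSK and Sox2 was 7 (11 as reported). Without GFP replicate 1 and OSK replicate 1 the Oct4 count was 8, and the median of OSK minus Oct4 was 0.84 (0.61 as reported). With a pseudocount of 5 the median of Klf4 minus Oct4 was 0.66 (0.79 as reported).

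Leaving out 1 library at a time gave 7 to 13 members in Oct4, 13 to 19 in OSK, 7 to 11 between OSK and Sox2, 7 to 15 between Klf4 and Sox2, and 6 to 16 relative to the index in Oct4 (15 as reported). The medians ran from 0.61 to 0.84 for OSK minus Oct4, 0.42 to 0.68 for Sox2 minus Oct4 and 0.65 to 0.81 for Klf4 minus Oct4. The causes were not tested.

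Signs relative to the index turned with its list. Over the replication list, the Klf4 differences were 0.68 for CHEK1, 0.57 for BRCA1, 0.16 for BARD1, 0.71 for BRCA2, 0.64 for FANCD2 and 0.22 for FANCI. Those of BARD1 and FANCI were not called (limma adjusted p = 0.433 and 0.117). The OSK differences were 0.66 for BRCA1, 0.49 for BARD1, 0.56 for BRCA2, 0.65 for RAD51AP1 and 0.06 for FANCI, the last not called (limma adjusted p = 0.638). Over the mitosis list XRCC2 was at -0.82 in Klf4 and -0.78 in OSK, and FANCD2 at -0.75 in OSK.

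The titles share replicate numbers across groups. The deviations of same-numbered libraries correlated between -0.069 and 0.412, over 0.1 in 1 of 10 pairs of groups, and 4 of 10 libraries correlated best with their own number, so the numbers were not taken as pairs. With the replicate block the counts in Oct4, Sox2, Klf4 and OSK were 12, 16, 15 and 17, and the count relative to the index in Oct4 was 9. RAD54B had 7 to 38 recovered reads per library, which limits the precision of its values.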
